A study of Chlamydomonas reinhardtii with 42 samples.

Results

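PHC4, PHC15, PHC19, PHC22, PHC24 and GAS28 are 6 genes for proteins of the cell wall of Chlamydomonas reinhardtii, a unicellular green alga, out of 17114 genes in the count table. The first 5 are named as pherophorins and GAS28 as a stress-induced hydroxyproline-rich glycoprotein in the authors' deposited tables. They were chosen by symbol from the authors' sheets of genes that differed with rapamycin, so the rapamycin values selected them and are given as a description with no test. The symbols were matched by locus to the normalized counts, where all 6 were found and all 6 passed the filter on low values. The sheets name 4 other pherophorin genes with counts, PHC2, PHC9, PHC25 and GAS31, which are used for comparison.

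Strain DHC16 (also spelled DCH16 in the growth protocol) and strain A31 were sequenced at 0, 12 and 48 h after vitamin B12 (cobalamin) and thiamine were put into the medium, so that ClpP1, which belongs to the Clp protease of the chloroplast, would be lost. In the count table every group had 3 libraries except A31 at 48 h, which had 2, numbered 19 and 22. A further recorded library of that group has no counts there. In the rapamycin part, A31 received rapamycin, an inhibitor of the TOR kinase, for 2 and 8 h, with a 0 h level beside it. Per the labels, cells grew in Tris-acetate medium under light, dim light or in the dark, and the labels do not say which cultures had which light. The labels do not name the depleted strain. In the published work on these lines the strain with repressible clpP1 is DCH16, and A31 is its control. Both strains received the vitamins, and no culture without vitamins was analysed at 12 or 48 h, so a change with time cannot be told apart from growth, light regime or time of sampling. Replicates are not described as separate cultures, and p-values thus reflect only how far these libraries differ, possibly for technical reasons.

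The wall of Chlamydomonas is built of hydroxyproline-rich glycoproteins and holds no cellulose. Pherophorins are a large family of such extracellular matrix proteins in volvocine algae, in which globular domains flank a rod rich in hydroxyproline; they were first described in Volvox. Wall protein genes are known to respond in this alga to removal of the wall, to osmotic stress, to mating and to the phase of the cell cycle, since daughter cells build new walls after division inside the mother wall. GAS28 is known as a gene whose transcript accumulates in gametes, zygotes and cells under osmotic stress or without a wall.

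The libraries held 7458423 to 13699705 reads, and 1 read was worth 0.703 to 2.04 normalized counts. The authors' scaling gave the DHC16 libraries at 0 h the 3 highest totals, and with all library totals made equal the median log2 change of all genes moved to 0.78 in DHC16 at 12 h (0.04 as deposited) and to 1.07 at 48 h (0.06 as deposited). The A31 libraries 19 and 22 at 48 h stood apart from each other, with a rank correlation of 0.854 over the tested genes and at least 0.967 within every other group, and the main results that rest on them are also given without each of them. The symbols come from sheets of changed genes, and similar members of the family could share reads in counting, which was not tested.

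After 12 h with the vitamins, the transcripts of the wall genes were far above 0 h in both strains. In DHC16 5 of the 6 genes rose and 0 fell, against a background of 30.1% of all 14422 tested genes called higher. In A31 all 6 rose, where 31.5% of all genes were called higher. The median log2 change of the 6 genes was 7.70 in DHC16 (0.04 over all tested genes) and 9.61 in A31 (0.02 over all tested genes). These calls are from limma on log2(normalized count + 1), with Benjamini-Hochberg adjustment over all tested genes at 0.05. The 6 genes were chosen with these results known, so the counts describe them and support no statement about the family.

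**Figure D1:**
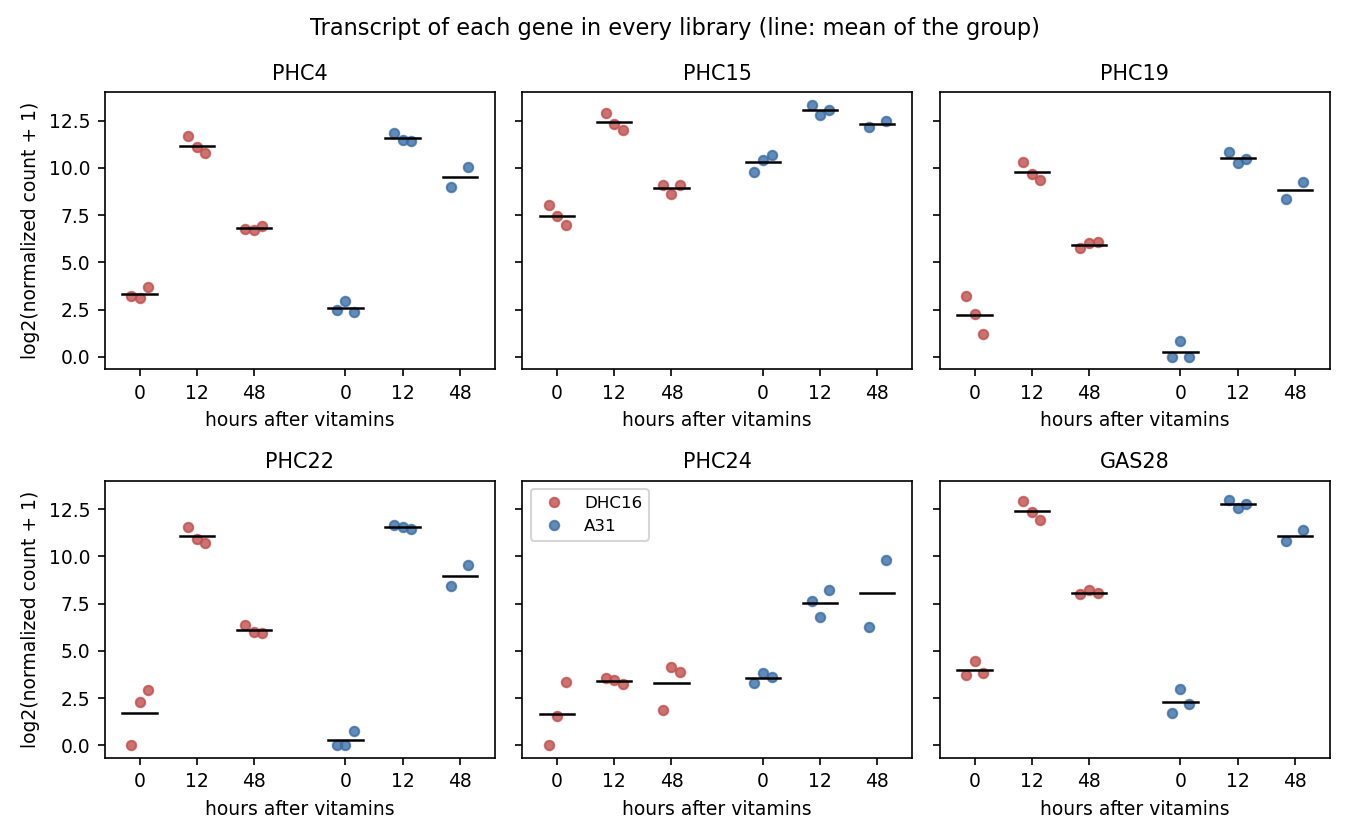
Normalized counts of the 6 wall genes in each of the 17 libraries on the log2(normalized count + 1) scale, against hours after the vitamins, with DHC16 on the left and A31 on the right of each panel and black lines at the group means. PHC4, PHC19, PHC22 and GAS28 lie near the bottom at 0 h and at their highest at 12 h in both strains, PHC15 starts higher in A31, and PHC24 stays low in DHC16.

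GAS28, the hydroxyproline-rich glycoprotein, had 12.3, 21.2 and 13.1 normalized counts in the DHC16 libraries at 0 h, 7773, 5228 and 3897 at 12 h, and 254, 297 and 262 at 48 h. In A31 it had 2.24, 6.87 and 3.52 at 0 h, 8135, 6103 and 6880.4 at 12 h, and 1799.8 and 2681 at 48 h. No library of 12 or 48 h overlapped those of 0 h in either strain. The log2 change at 12 h was 8.40 ± 0.30 in DHC16 (SE, adjusted p = 4e-12) and 10.49 ± 0.30 in A31 (adjusted p = 1.6e-13). At 48 h it was 4.08 ± 0.30 in DHC16 (adjusted p = 2.1e-08) and 8.82 ± 0.34 in A31 (adjusted p = 1.9e-11), the A31 value being 9.11 without library 19 and 8.53 without library 22. Only 27 reads in DHC16 and 16 reads in A31 stand behind the 0 h values.

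PHC4 followed the same course. It had 8.17, 7.72 and 11.8 normalized counts in DHC16 at 0 h, 3275, 2187 and 1748 at 12 h, and 106, 102 and 122 at 48 h. The A31 libraries held 4.48, 6.87 and 4.22 at 0 h, 3734, 2831 and 2715 at 12 h, and 501 and 1049 at 48 h. Groups of different times did not overlap within a strain. The log2 change at 12 h was 7.85 ± 0.28 in DHC16 (adjusted p = 4e-12) and 8.98 ± 0.28 in A31 (adjusted p = 3.3e-13). At 48 h these were 3.46 ± 0.28 (adjusted p = 4.8e-08) in DHC16 and 6.90 ± 0.31 (adjusted p = 1.6e-10) in A31. The A31 value at 48 h was 7.43 without library 19 and 6.37 without library 22.

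PHC19 and PHC22 lie near each other, with 4 genes between them in the RefSeq table of assembly v5.5, which lists 5 of the 6 wall genes and not PHC24. PHC19 had 8.17, 3.86 and 1.31 normalized counts in DHC16 at 0 h, 1250.3, 826 and 662 at 12 h, and 52.6, 63.2 and 65.9 at 48 h. In A31 it had 0, 0.763 and 0 at 0 h, 1809, 1243 and 1415 at 12 h, and 332 and 618 at 48 h. At 0 h PHC19 was therefore near the limit of detection in A31, where 1 read was seen in all 3 libraries together and 7 in DHC16. The ratio of 12 h to 0 h in A31, from summed reads, was 5390 with an exact 95% counting interval of 967 to 212931, and in DHC16 it was 228 (110 to 567). Such intervals cover counting error only.

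PHC22 had 0, 3.86 and 6.53 normalized counts in DHC16 at 0 h, 2989, 1948 and 1693 at 12 h, and 81.1, 62.5 and 60.9 at 48 h. The A31 libraries held 0, 0 and 0.703 at 0 h, 3264, 3052 and 2828 at 12 h, and 342 and 746 at 48 h. Here too A31 showed 1 read in all at 0 h, and the ratio of 12 h to 0 h was 11090 (exact 95% counting interval 1990 to 438090) in A31 and 553 (268 to 1376) in DHC16. On the fitted scale PHC22 had the highest log2 change of all 14422 genes in A31 at 12 h (11.32 ± 0.52, adjusted p = 4.7e-11) and the 2nd highest in DHC16 (9.34 ± 0.52, adjusted p = 8.1e-10). These fitted values depend on the pseudocount of 1, and in A31 the log2 change ran from 9.19 to 13.30 over the settings tried. Among the 3 genes on either side of PHC19 and PHC22 in that table, the highest log2 changes at 12 h were those of Cre17.g696800 (3.68 in DHC16 and 3.41 in A31) and Cre17.g696650 (3.33 in DHC16 and 3.45 in A31). The lowest were those of Cre17.g696400 (-2.14 in DHC16 and -1.80 in A31) and Cre17.g696750 (-1.93 in DHC16 and -0.93 in A31).

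PHC15 was already well detected at 0 h, with 312 reads in DHC16 and 4945 in A31. It had 261, 172 and 124 normalized counts in DHC16 at 0 h, 7569, 5158 and 4084 at 12 h, and 549, 392 and 547 at 48 h. In A31 it had 891, 1359 and 1665 at 0 h, 10448, 7056 and 8547 at 12 h, and 4565 and 5796 at 48 h. The 2 strains did not overlap at 0 h and overlapped at 12 h. PHC15 rose at 12 h by log2 4.93 ± 0.29 in DHC16 (adjusted p = 1.5e-09) and by 2.76 ± 0.29 in A31 (adjusted p = 9e-07), and at 48 h it was 1.46 ± 0.29 above 0 h in DHC16 (adjusted p = 0.00044) and 2.03 ± 0.32 in A31 (adjusted p = 0.00034). The A31 change at 48 h was 2.20 without library 19 and 1.85 without library 22.

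PHC24 was the gene whose changes were not called in DHC16. It had 0, 1.93 and 9.14 normalized counts in DHC16 at 0 h, 10.8, 9.83 and 8.37 at 12 h, and 2.68, 16.4 and 14.0 at 48 h. The times overlapped in DHC16. In A31 it had 8.95, 13 and 11.2 at 0 h, 195, 108 and 299 at 12 h, and 76.8 and 894 at 48 h, so 12 and 48 h overlapped and both lay above 0 h. The changes in DHC16 were not called, with log2 1.78 ± 0.83 at 12 h (adjusted p = 0.077) and 1.67 ± 0.83 at 48 h (adjusted p = 0.097). They were called without DHC16 library 7 of 0 h (log2 2.63 at 12 h and 2.53 at 48 h), with equal library totals, and, through the shared spread, without A31 library 19 or 22 of 48 h, and at 48 h also without DHC16 library 19. PHC24 rose in A31 at 12 h by log2 3.96 ± 0.83 (adjusted p = 0.00066) and at 48 h by 4.47 ± 0.93 (adjusted p = 0.0027). Library 22 held 11.6 times as much PHC24 as library 19 at 48 h, and without library 22 the 48 h change was log2 2.70 and not called (adjusted p = 0.097), against 6.23 without library 19. It was also not called with only the compared groups in the fit (log2 4.47, adjusted p = 0.068).

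**Figure D2:**
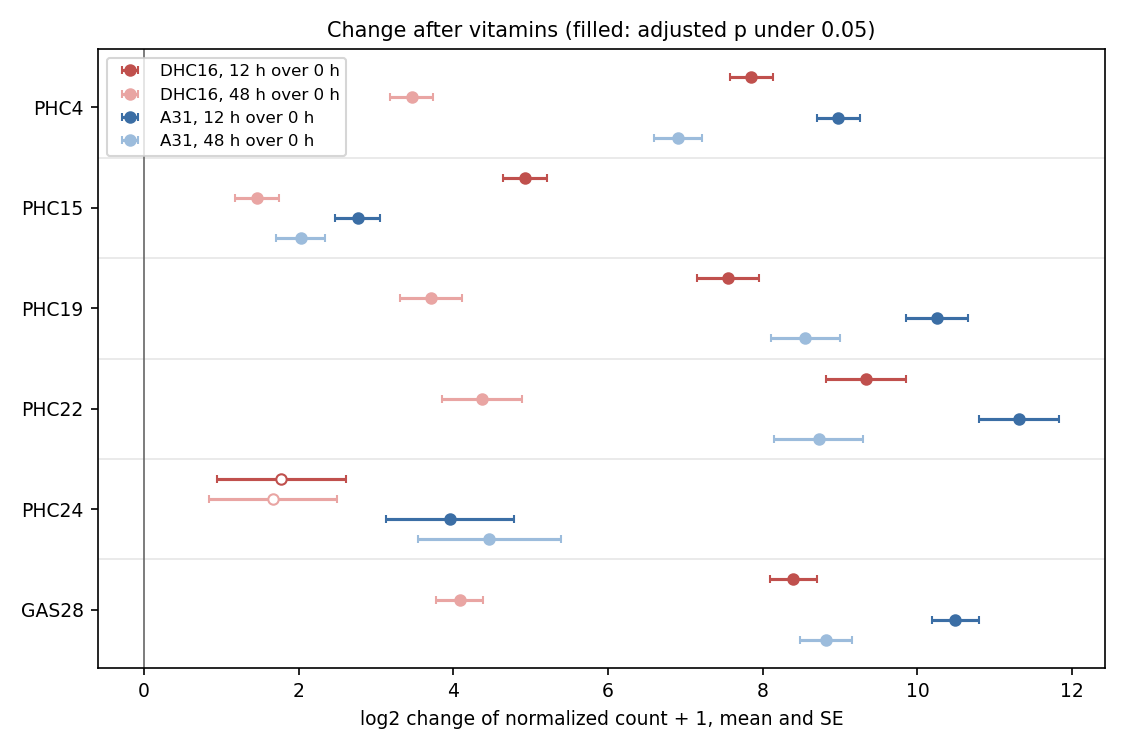
Log2 change of each wall gene against 0 h on the log2(normalized count + 1) scale, with its SE, for 12 and 48 h in DHC16 (red) and A31 (blue). Filled points have an adjusted p under 0.05, and the open points are PHC24 in DHC16 at 1.78 and 1.67.

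At 48 h, 5 of the genes stood below their 12 h means in both strains, at shares that were lower in DHC16. In DHC16 GAS28 stood at 4.82%, PHC4 at 4.58%, PHC22 at 3.08%, PHC19 at 6.64% and PHC15 at 8.85% of the 12 h mean. In A31 GAS28 stood at 31.8%, PHC4 at 25.1%, PHC22 at 17.8%, PHC19 at 31.9% and PHC15 at 59.7%. PHC24 stood at 114% in DHC16. For PHC24 in A31 the share was 242%, but library 19 alone stood at 38.3% of the 12 h mean and library 22 at 445%. For the other 5 genes the A31 shares were 11.2% to 52.6% in library 19 and 24.5% to 66.7% in library 22. These shares were not tested. Against 0 h, 5 of 6 genes were still higher in DHC16 at 48 h (29.7% of all genes called higher), with a median log2 of 3.59 and 0.06 over all tested genes. In A31 all 6 were higher (14.4% of all genes), with a median of 7.73 and 0.03 over all tested genes.

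The strains were then compared at each time. At 0 h, 2 of the 6 genes were higher in DHC16 than in A31 (4.72% of all genes called higher) and 1 was lower (4.66% of all genes called lower). GAS28 was higher by log2 1.72 ± 0.30 (adjusted p = 0.0022) and PHC15 lower by log2 -2.83 ± 0.29 (adjusted p = 2.3e-05). PHC15 had 186 ± 69.7 normalized counts in DHC16 and 1305 ± 389.9 in A31 (SD, n = 3 each). PHC19 was called higher (log2 1.95 ± 0.40, adjusted p = 0.0062), but it rests on 7 reads in DHC16 and 1 in A31, a ratio of 14.3 with a counting interval of 1.84 to 645, and its call was lost with a pseudocount of 5 (adjusted p = 0.095), with edgeR (0.079) and with only the compared groups in the fit (0.066). PHC4, PHC22 and PHC24 were not called, with log2 0.73 ± 0.28, 1.48 ± 0.52 and -1.95 ± 0.83 (adjusted p = 0.11, 0.082 and 0.16). All 6 were called without A31 library 19 or library 22 of 48 h, which changes only the shared spread. PHC22 was also called without DHC16 library 1 (log2 2.34) and PHC24 without DHC16 library 7 (log2 -2.80).

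At 12 h, 0 genes were higher and only PHC24 was lower in DHC16 than in A31, where 1.75% of all genes were called lower. PHC24 had 9.66 ± 1.22 normalized counts in DHC16 and 201 ± 95.4 in A31 (SD, n = 3 each), a log2 difference of -4.13 ± 0.83 (adjusted p = 0.0093), the 6th lowest of all genes. Without A31 library 16 its adjusted p was 0.053 at a log2 of -3.79. For the other 5 genes the log2 differences lay between -0.74 ± 0.40 in PHC19 and -0.37 ± 0.30 in GAS28, with adjusted p from 0.23 to 0.64, which does not show that the strains were alike.

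At 48 h all 6 genes were lower in DHC16 than in A31, where 15.5% of all genes were called lower. GAS28 had 271 ± 23.0 normalized counts in DHC16 (SD, n = 3) against 1799.8 and 2681 in the A31 libraries, a log2 of -3.02 ± 0.34 (adjusted p = 3.9e-06). The log2 difference was -2.71 ± 0.31 for PHC4 (adjusted p = 5e-06), -3.39 ± 0.32 for PHC15 (adjusted p = 6.7e-07), -2.89 ± 0.45 for PHC19 (adjusted p = 0.00011), -2.88 ± 0.58 for PHC22 (adjusted p = 0.0011) and -4.74 ± 0.93 for PHC24 (adjusted p = 0.00089). In every case all DHC16 libraries lay below both A31 libraries. The share of all genes separated in this way was not counted, so the separation only describes these genes. The calls remained for all 6 without library 19 and without library 22, where PHC24 had log2 -6.50 and -2.98. The other 5 genes lay between -3.56 and -3.24 without library 19 and between -3.22 and -2.18 without library 22.

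**Figure D3:**
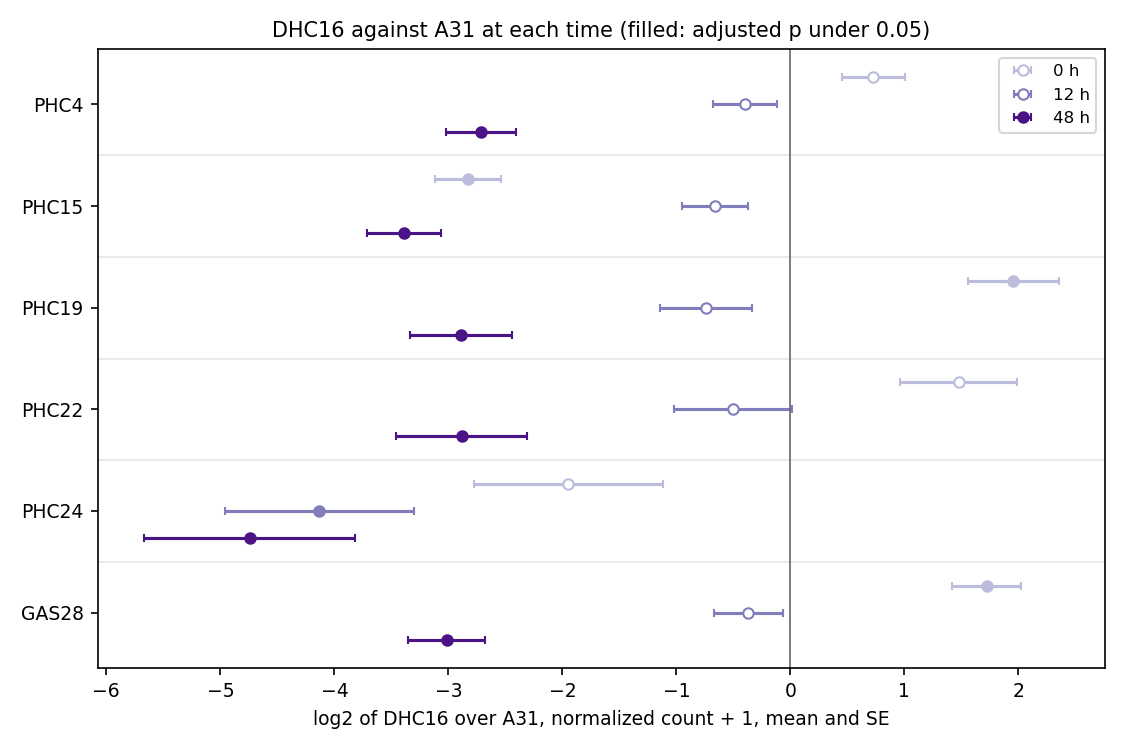
Log2 of DHC16 over A31 for each wall gene at 0, 12 and 48 h, with its SE, on the log2(normalized count + 1) scale. At 48 h all 6 points are filled (adjusted p under 0.05) and lie between -2.71 and -4.74, while at 12 h only PHC24 is filled.

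The change from 0 h itself was compared between the strains, by subtracting the A31 change from that in DHC16. At 48 h the rise was smaller in DHC16 for 4 of the 6 genes, and 8.66% of all genes were called lower in this contrast. The difference was -4.74 ± 0.45 for GAS28 (adjusted p = 3e-06), -4.84 ± 0.60 for PHC19 (adjusted p = 4.1e-05), -4.36 ± 0.77 for PHC22 (adjusted p = 0.00081) and -3.44 ± 0.42 for PHC4 (adjusted p = 3.3e-05). All 4 calls remained without library 19 (-5.03 for GAS28, -5.29 for PHC19, -4.92 for PHC22 and -3.97 for PHC4) and without library 22 (-4.45, -4.39, -3.80 and -2.91 in the same order). For PHC19 and PHC22 this includes the very few reads at 0 h. PHC24 was not called (-2.80 ± 1.24, adjusted p = 0.14), and without A31 library 22 it was -1.03 (adjusted p = 0.54). It was called in 6 of 26 other settings: without A31 library 19 (-4.56, adjusted p = 0.006), without DHC16 library 1 (-3.61, adjusted p = 0.045), with a pseudocount of 5 (adjusted p = 0.025), with quantile scaling (0.042), with DESeq2 (0.027) and with a block for the library number (0.035). PHC15 was not called either (-0.56 ± 0.43, adjusted p = 0.41) and took the other sign with equal library totals (0.70).

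At 12 h PHC15 rose more in DHC16, with a difference of 2.17 ± 0.41 (adjusted p = 0.036), when 0.153% of all genes were called higher. Its libraries of the 2 strains overlapped at 12 h and not at 0 h. It was called in 13 of 26 other settings, with adjusted p from 0.00032 to 0.14. The call was lost with a block for the library number (adjusted p = 0.11). It was also lost without DHC16 library 4 or 7 of 0 h, 10, 13 or 16 of 12 h, or 19 or 25 of 48 h, and without A31 library 4 or 7 of 0 h or 10, 13 or 16 of 12 h. The other 5 genes had differences between -1.13 ± 0.39 in PHC4 and -2.69 ± 0.57 in PHC19, with adjusted p of 0.052 for GAS28, 0.058 for PHC19 and 0.24 to 0.46 for PHC4, PHC22 and PHC24. GAS28 was called in 8 of 26 other settings, PHC19 in 7 and PHC22 in 1. GAS28 and PHC19 were called without A31 library 19 or 22 of 48 h, with a pseudocount of 0.5, with quantile scaling and with only the compared groups. GAS28 was also called without A31 library 4 of 0 h, with DESeq2 and with a block for the library number. PHC19 was also called without DHC16 library 7 of 0 h and with equal library totals, and PHC22 without DHC16 library 1 of 0 h.

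The other named pherophorins rose as well. In both strains all 4 rose at 12 h, with a median log2 of 4.81 in DHC16 (0.04 over all tested genes, 30.1% of them called higher) and 4.50 in A31 (0.02 over all tested genes, 31.5% called higher). PHC2 had 8409 to 14268 normalized counts in DHC16 at 12 h against 913 to 1776 at 0 h, and 7048 to 12789.9 in A31 at 12 h against 701 to 803 at 0 h. At 48 h PHC2 had 1396 to 1819 normalized counts in DHC16 and 5323 and 14467 in A31, and the difference of its 48 h change was -3.22 ± 0.49 (adjusted p = 0.00023), or -3.95 without library 19 and -2.50 without library 22. GAS31 had a difference of -1.95 ± 0.46 (adjusted p = 0.0065) at 48 h, or -2.58 without library 19 and -1.32 without library 22, and it was not called with equal library totals (-0.70, adjusted p = 0.23). Against 0 h, 3 of the 4 were higher at 48 h in DHC16, where 29.7% of all genes were, and the median log2 was 1.65 (0.06 over all tested genes). PHC2 was the exception (log2 0.35 ± 0.33, adjusted p = 0.37), and PHC9 was not called with quantile scaling (log2 1.06, adjusted p = 0.18). In A31 all 4 were higher at 48 h, where 14.4% of all genes were, with a median of 3.32 (0.03 over all tested genes). PHC9 was not called there without library 22 (log2 1.48, adjusted p = 0.32), without library 1 of 0 h (2.02, 0.061), with quantile scaling (1.63, 0.1) or with only the compared groups (2.63, 0.16).

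PHC25 did not follow this course in DHC16. It had 10.2, 0 and 0 normalized counts at 0 h, 229, 114 and 86.2 at 12 h, and 298, 355 and 288 at 48 h, so its level at 48 h was 219.5% of that at 12 h. In A31 it had 3.36, 5.34 and 2.11 at 0 h, 424, 174 and 275 at 12 h, and 161 and 204 at 48 h. The strains were not called different at 48 h (log2 0.78 ± 0.75, adjusted p = 0.46), and neither was the difference of the 48 h change (1.76 ± 1.00, adjusted p = 0.25). PHC9 was low throughout, at 57.8 normalized counts or fewer.

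**Figure D4:**
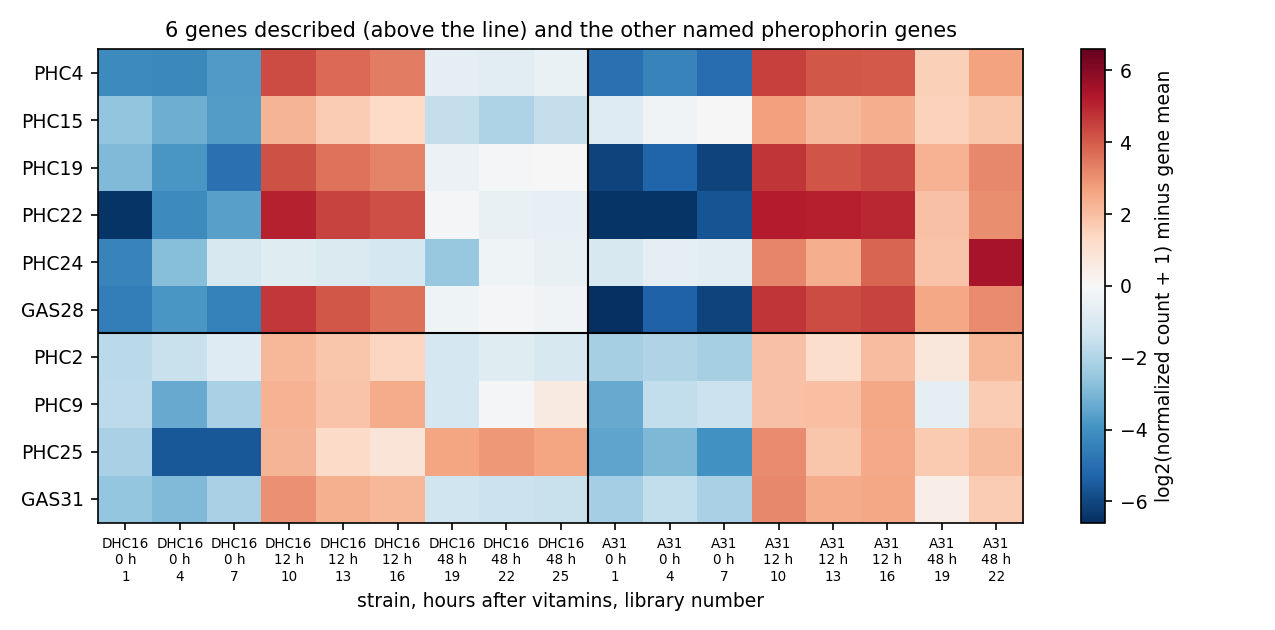
Log2(normalized count + 1) of each gene minus its mean over the 17 libraries, with DHC16 left of A31 and the 6 wall genes above the black line. PHC25 stays above its mean in DHC16 at 48 h, with 298, 355 and 288 normalized counts, whereas GAS28, with 254, 297 and 262, is close to its own mean.

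Of the other wall genes in the list, VSP6 for a hydroxyproline-rich wall protein and MMP8 and MMP13 for metalloproteinases, MMP13 rose at 12 h in both strains, by log2 0.77 ± 0.22 in DHC16 (adjusted p = 0.0059) and 0.77 ± 0.22 in A31 (adjusted p = 0.0057). The other 2 were not called at 12 h in either strain, and of all genes 30.1% in DHC16 and 31.5% in A31 were called higher. At 48 h MMP13 (log2 -1.10 ± 0.22, adjusted p = 0.00046) and VSP6 (-0.77 ± 0.32, adjusted p just under the limit at 0.05) were called lower in DHC16, where 25.3% of all genes were. With equal library totals neither was called (log2 -0.07 for MMP13 and 0.27 for VSP6), and VSP6 was called in 9 of 25 other settings. In A31 0 of 3 was called at 48 h, where 27.0% of all genes were called in either direction. The difference of the 48 h change was called for MMP13 (-1.49 ± 0.32, adjusted p = 0.0038), though not with equal library totals (-0.24, adjusted p = 0.6). It was not called for MMP8 or VSP6 in the main fit. ISG-C1 and ISG-C2, also for hydroxyproline-rich wall proteins, lie outside the list and were named after their values were seen. Their values and calls are thus a description and support no statement on other wall genes. ISG-C1 had 579 to 757 normalized counts in DHC16 at 12 h against 61.3 to 132 at 0 h, and 751 to 1129.8 in A31 at 12 h against 121 to 164.5 at 0 h. Its log2 change at 48 h was 0.13 ± 0.43 in DHC16 (adjusted p = 0.82) and 1.66 ± 0.48 in A31 (adjusted p = 0.019), the A31 call being lost without library 22 (0.37, adjusted p = 0.57), without library 7 of 0 h (0.059) and with only the compared groups (0.2). ISG-C2 had 1499 to 2852 normalized counts in DHC16 at 12 h against 3.86 to 6.13 at 0 h, and 2272 to 3225 in A31 at 12 h against 5.34 to 7.03 at 0 h. At 48 h ISG-C2 was above 0 h by log2 4.19 ± 0.24 in DHC16 (adjusted p = 1.7e-09) and 7.33 ± 0.27 in A31 (adjusted p = 1.9e-11). The difference of its 48 h change was -3.15 ± 0.36 (adjusted p = 2e-05), called in 26 of 26 other settings. That of ISG-C1 was -1.53 ± 0.65 (adjusted p = 0.11), called in 3 of 26 other settings. The gamete list holds 4 named genes, FUSM, SAG1, HAP2 and GAS31, of which 3 were tested. FUSM, named as a gamete-specific protein, fell at 12 h by log2 -3.09 ± 0.47 in DHC16 (adjusted p = 4.3e-05) and -4.02 ± 0.47 in A31 (adjusted p = 3.2e-06). GAS31, the pherophorin described above, rose at 12 h by log2 5.02 ± 0.30 in DHC16 (adjusted p = 2.4e-09) and 4.73 ± 0.30 in A31 (adjusted p = 3.6e-09). SAG1, the plus agglutinin, had log2 0.41 ± 0.39 in DHC16 and 0.30 ± 0.39 in A31 at 12 h (adjusted p = 0.4 and 0.53), and was called higher in DHC16 at 48 h (2.00 ± 0.39, adjusted p = 0.00045). HAP2 was under the filter on low values, with 0 reads at 0 h and 36 at 12 h in DHC16, and 7 and 49 in A31. With no filter on low values its 12 h change was called in both strains.

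The named genes whose course over the 17 libraries was most like that of each wall gene are given by Pearson's r on the log2 scale among 760 named genes, with no p. GAS28 was most like ALK3, an Aurora-like kinase (r = 0.997), then FAP212 (0.992) and MINE2 (0.988). PHC4 was most like ALK3 (0.995), GOX18 (0.994) and CYCA1 (0.991), and PHC22 most like ALK3 (0.995), MINE2 (0.991) and MIND1 (0.990). PHC19 stood nearest to FAP212 (0.993), ALK3 (0.987) and FTSZ2 (0.983), and PHC15 to NPH4 (0.957), AST1 (0.945) and SFI1 (0.940). PHC24 had no named gene at 0.9 or more, and RAD54A (0.886), CKS1 (0.824) and PDC3 (0.810) came first. The points share the strain and time groups, and 99 named genes reached 0.9 for PHC4 and 81 for GAS28. Within groups, on deviations from the group means, GAS28 had r = 0.625 with PHC4, 0.529 with PHC19, 0.455 with PHC15, 0.345 with PHC24 and 0.334 with PHC22. Not all pairs were positive: r was -0.475 for PHC19 with PHC22, -0.192 for PHC15 with PHC24, -0.190 for PHC15 with PHC22 and -0.113 for PHC19 with PHC24. It ran from 0.330 to 0.740 over the other 6 pairs. At 0 h, PHC19 and PHC22 had 7 reads each in DHC16 and 1 each in A31, and PHC24 had 8 in DHC16. The part of such low counts in these values of r was not tested. Of the 13 genes named here as most alike, 9 are in the authors' deposited 8 h sheet, 8 of them lower, while PDC3 was higher (2.26). Of all genes in that sheet 59.6% were lower, and the named genes compared were themselves drawn from the rapamycin sheets.

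With rapamycin the 6 genes parted. The authors' sheets hold genes whose moderated log2 change exceeded 1 in size, the lowest being 1.000013, with adjusted p up to 0.0099. In the authors' deposited table for 8 h, 5 of the 6 genes were lower than at 0 h and PHC24 was higher. Of the 1702 genes listed at 8 h, 1014 were lower. PHC15, at -1.11, is the wall gene nearest to the limit of the sheet. The table gives means only, with no replicate values and no stated scale, so no error can be given and levels are not compared with the normalized counts.

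PHC22 had an authors' mean level of 104 at 0 h, 25.7 at 2 h and 2.94 at 8 h in A31, a moderated log2 change of -1.79 at 2 h and -4.48 at 8 h in the authors' deposited table. The 8 h change was the 2nd lowest of the 1702 genes. PHC4 had 6.59 at 8 h against 69.0 at 0 h (-3.25, the 10th lowest in the authors' deposited table). GAS28 had 60.3 at 8 h against 160 at 0 h (-1.52), PHC19 10.7 against 32.9 (-1.62) and PHC15 80.0 against 165 (-1.11), all from the authors' deposited table. These 4 are not in the authors' 2 h sheet, so they did not pass the 2 limits of that sheet at 2 h.

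PHC24 had 1.14 at 0 h, 24.2 at 2 h and 203 at 8 h in the authors' deposited table, with moderated log2 changes of 3.64 at 2 h and 6.39 at 8 h. That was the highest of all 1702 genes listed at 8 h and the 15th highest of 1939 at 2 h. PHC24 is thus the only wall gene of the 6 that was higher with rapamycin, and with the vitamins it was the only one not called higher in DHC16. The other named pherophorins were divided in the authors' deposited table, PHC25 being higher at 8 h (2.61), PHC2 higher (1.14) and GAS31 lower (-1.99), while PHC9 was lower at 2 h (-1.69).

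**Figure D5:**
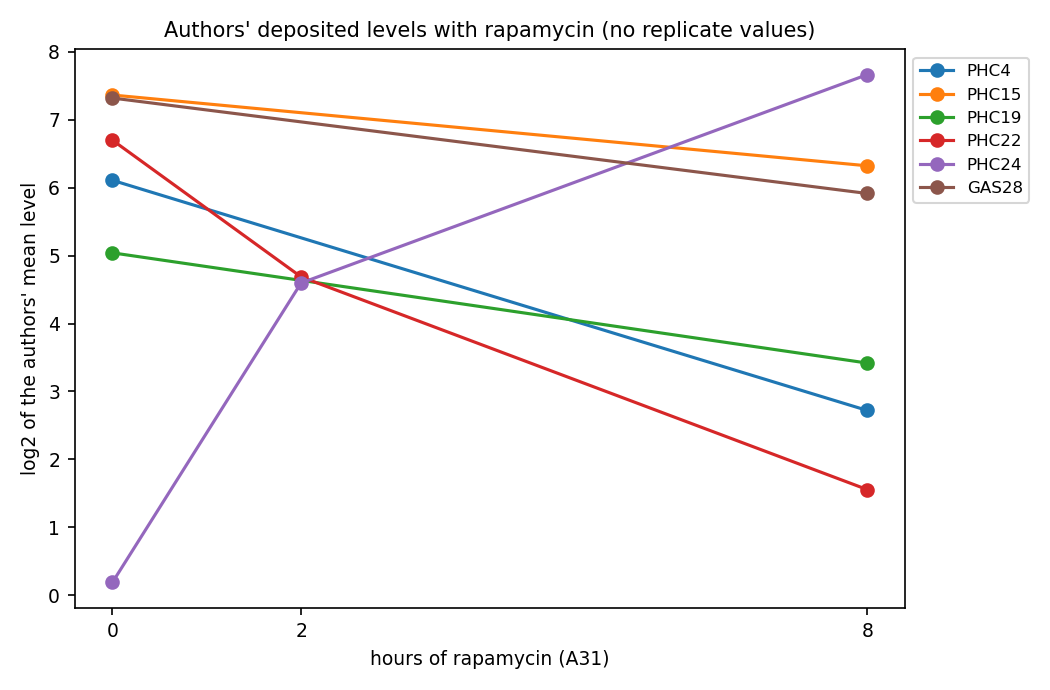
Log2 of the authors' mean level of each wall gene in A31 at 0, 2 and 8 h of rapamycin, from the authors' deposited table, with lines joining the times that table lists. PHC24 goes up to 203 at 8 h against 1.14 at 0 h, and the other 5 genes end lower, PHC22 at 2.94 against 104.

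The ratio of GAS28 or PHC4 to PHC15 in the same samples, which is not per length, differed between the 0 h samples of the 2 parts. In the authors' deposited table for the rapamycin part, GAS28 stood at 97.0% of PHC15 at 0 h and PHC4 at 41.9%. In the vitamin part GAS28 was at 0.322% of PHC15 in A31 at 0 h and at 81.1% at 12 h, and PHC4 was at 0.398% at 0 h and 35.6% at 12 h. These A31 values at 0 h rest on 16 reads of GAS28 and 19 of PHC4. In DHC16 GAS28 was at 8.35% of PHC15 at 0 h and 100.5% at 12 h, and PHC4 at 4.96% and 42.9%. Whether the 2 parts treat gene length alike was not tested, and the growth conditions of the rapamycin 0 h samples relative to the vitamin ones are not stated.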

How the data were processed

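Normalized counts were deposited by the authors as a signal for 17114 genes in 17 libraries; each value is reads divided by 1 factor of its library. The submitters' processing notes name CASAVA 1.8.2, HTSeq 0.5.3p9, TopHat 1.3.1 and edgeR 3.0.8. The build, the strand setting and how the factors were found are unknown here. For rapamycin, the authors deposited mean levels (a signal), moderated log2 changes and p-values, per the file headers, with no test named. Library 25 of A31 at 48 h and the single rapamycin libraries were not analysed here. The members and lists were chosen with earlier results of these data known. The named genes are the 6 members, the cell wall and gamete lists and, for each member, the 3 most alike named genes. Named outside this rule, after their values were seen, are ISG-C1 and ISG-C2. The same holds for neighbours of PHC19 and PHC22 with the highest or lowest changes at 12 h.

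Genes averaging at least 1 CPM over the libraries, 14422 in number, were tested with limma 3.58.1 (R 4.3.3) on log2(normalized count + 1). The fit had a mean for each strain and time and a spread shared by all libraries, and p-values were adjusted by Benjamini-Hochberg at 0.05. Fold changes on this scale understate those of low genes. Whole reads could be recovered (100% of values within 0.01 of a whole read) for edgeR 4.0.16 and DESeq2 1.42.0, which were alternatives beside other pseudocounts, filters and scalings, left-out libraries and a block for the library number. The tests were first tried on simulated data. There all libraries had the same mean and spread for a gene, apart from changes put into 1 group. Groups whose libraries stand apart, as here, were not simulated, so this does not check the contrasts that use them.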

Additional observations from a re-analysis of the deposited data

Results flagged for a closer look

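The change from 0 h differed between the strains, by a test of the difference itself (DHC16 change minus A31 change, limma, adjusted over all genes), for these results. At 12 h PHC15 had a difference of 2.17 (log2), with changes of 4.93 in DHC16 and 2.76 in A31. At 48 h PHC4 had a difference of -3.44, with changes of 3.46 in DHC16 and 6.90 in A31. PHC19 had -4.84, with 3.71 in DHC16 and 8.55 in A31. PHC22 had -4.36, with 4.37 in DHC16 and 8.73 in A31. GAS28 had -4.74, with 4.08 in DHC16 and 8.82 in A31. PHC19 and PHC22 had 1 read each over the 3 A31 libraries at 0 h. Over the other settings the 48 h difference ran from -6.70 to -3.59 for PHC19 and from -6.68 to -3.43 for PHC22. Both were called in 26 of 26 of these settings, so the calls held while the sizes varied. The part of the few reads in these sizes was not tested separately.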

How the results depend on the processing

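The 54 changes of the 6 genes were recomputed 1380 times in all, and 1315 repeats stayed on the same side of the threshold. Direction was checked only for changes called in the main fit or in the repeat. A call was lost in 19 repeats and gained in 46, and 0 called changes reversed. For DHC16 against A31 at 0 h the number of wall genes called was 5 with equal library totals and 5 with quantile scaling, and 3 to 6 on leaving out a library. At 12 h it was 2 with equal totals and 3 with only the compared groups in the fit, and 0 to 1 on leaving out a library. The difference of the 12 h change had 3 called with a pseudocount of 0.5, 2 with equal totals, 3 with quantile scaling, 2 with DESeq2 and 3 with only the compared groups, and 0 to 3 on leaving out a library. The causes were not tested. Same-numbered libraries of the strains had correlations of deviations of 0.151 to 0.222 at 0 h, -0.030 to 0.178 at 12 h and -0.084 to 0.056 at 48 h; not every pair was over 0.1, so the block stayed an alternative. With a block 3 wall genes were called at 0 h, as reported; with a replicate block the difference of the 48 h change had 5 wall genes called, and that of the 12 h change had PHC15 no longer (adjusted p = 0.11) and GAS28 newly called (0.031).

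Over all genes, equal totals moved the share of calls that were higher to 86.2% (53.2% as reported) in DHC16 at 12 h, 92.4% (54.1%) in DHC16 at 48 h, 69.6% (52.5%) in A31 at 12 h, 29.0% (53.2%) in A31 at 48 h, 1.64% (50.3%), 13.1% (49.4%) and 84.0% (50.8%) for the strains at 0, 12 and 48 h, and 95.8% (61.1%) and 95.5% (51.7%) for the differences at 12 and 48 h. Calls over all genes numbered 7445 at 0 h between strains (1353 as reported), 1055 at 12 h (498), 335 and 9580 for the differences at 12 and 48 h (36 and 2584). Quantile scaling gave 769 at 0 h. Only the compared groups gave 297 for A31 at 48 h (3892), 2488 and 1631 for the strains at 12 and 48 h (498 and 4545) and 502 and 1671 for the differences. DESeq2 gave 1008 for the strains at 12 h and 179 for the 12 h difference, and the block 11 for the 12 h difference.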
